A study of Drosophila melanogaster with 2 samples.

Results

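Peaks at divergent promoters are CHES-1-like-GFP binding peaks whose summit lay within 500 bp of the transcription start site (TSS) of at least 1 protein-coding gene on the plus strand and at least 1 on the minus strand. Of the 4599 peaks in the authors' thresholded list on the dm6 assembly, 1072 (23.3%) met this rule, which read only the position of the summit and the annotation. Another 1823 peaks had TSSs of 1 strand only within 500 bp, here called single-strand promoter peaks, and 1704 had none. Embryos of Drosophila melanogaster, males and females together and aged 0 to 24 h, were used whole. They came from a transgenic line with GFP at the C-terminal end of CHES-1-like, and chromatin was immunoprecipitated with an anti-GFP antibody. There was 1 group with 2 samples, biological replicates 2 and 3, so no test was made across samples. Whole embryos mix many tissues and ages, and a peak does not tell in which cells the protein was bound.

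CHES-1-like is a forkhead transcription factor. In a compact genome such as that of Drosophila, many neighbouring genes are transcribed away from each other from 1 short stretch of DNA, an arrangement called head to head, and many of these genes are active in most cells. Promoters of such broadly used genes often carry the DNA replication-related element (DRE), bound by DREF, or the core promoter elements named Motif 1 and Motif 7, whereas many developmentally regulated promoters carry GAGA elements, an initiator or a TATA box.

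The stretches of DNA between the TSSs of 7 gene pairs show what lies under these peaks. They were taken from strong head-to-head peaks whose summit fell in a gap of 40 to 300 bp free of annotated exons: the 3 strongest of these, and 4 that hold a motif or flank a gene of the groups described further on. Each is the plus strand of the release 6 (dm6) sequence, in lower case, with DRE, Motif 1 and Motif 7 sites in capitals. The minus-strand gene is named first and starts to the left. The Atat/Shc stretch holds a DRE at base 202 and Motif 7 sites at bases 34 and 235, the CG3437/CG3552 stretch holds a Motif 7 site at base 19, and the other 5 hold none of the 3 elements.
Art3/mRpS10, chr3R:15229409-15229664: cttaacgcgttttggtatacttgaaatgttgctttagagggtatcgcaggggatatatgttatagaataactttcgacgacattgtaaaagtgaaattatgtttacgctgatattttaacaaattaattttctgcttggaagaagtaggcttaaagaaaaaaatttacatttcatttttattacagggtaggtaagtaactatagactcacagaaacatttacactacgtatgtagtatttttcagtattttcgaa
Atat/Shc, chr3L:9426759-9427009: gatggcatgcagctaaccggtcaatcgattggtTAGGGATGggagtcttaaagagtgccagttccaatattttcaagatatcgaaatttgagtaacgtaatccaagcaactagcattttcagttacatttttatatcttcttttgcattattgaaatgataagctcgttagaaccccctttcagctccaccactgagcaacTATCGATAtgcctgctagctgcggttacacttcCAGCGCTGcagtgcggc
Tcs5/CHMP2B, chr3L:5139396-5139618: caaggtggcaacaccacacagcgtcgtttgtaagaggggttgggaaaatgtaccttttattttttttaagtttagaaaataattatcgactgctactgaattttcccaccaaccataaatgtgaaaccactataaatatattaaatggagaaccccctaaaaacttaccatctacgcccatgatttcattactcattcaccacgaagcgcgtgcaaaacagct
RpS27/Nup37, chr3R:25247515-25247657: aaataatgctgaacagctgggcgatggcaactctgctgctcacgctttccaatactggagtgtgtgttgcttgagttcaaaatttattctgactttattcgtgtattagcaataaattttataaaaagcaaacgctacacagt
CG3437/CG3552, chr3L:9457670-9457911: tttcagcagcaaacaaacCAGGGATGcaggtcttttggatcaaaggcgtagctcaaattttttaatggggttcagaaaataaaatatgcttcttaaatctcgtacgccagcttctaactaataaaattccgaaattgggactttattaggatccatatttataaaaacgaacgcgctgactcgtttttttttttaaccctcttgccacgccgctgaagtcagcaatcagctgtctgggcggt
MED30/Rev1, chr3L:654090-654362: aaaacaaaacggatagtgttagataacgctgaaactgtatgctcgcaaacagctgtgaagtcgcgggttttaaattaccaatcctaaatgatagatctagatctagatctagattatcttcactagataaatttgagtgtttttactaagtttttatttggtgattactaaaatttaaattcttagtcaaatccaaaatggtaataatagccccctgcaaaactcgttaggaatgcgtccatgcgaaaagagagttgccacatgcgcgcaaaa
Nelf-E/RpL14, chr3L:8600880-8601005: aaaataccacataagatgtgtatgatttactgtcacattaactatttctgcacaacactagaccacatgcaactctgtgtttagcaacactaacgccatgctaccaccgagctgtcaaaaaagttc

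The strongest peak at a divergent promoter lay between Art3, which encodes an arginine methyltransferase, and mRpS10, which encodes a protein of the small mitochondrial ribosomal subunit. Its signal, the authors' own value on the scale of each list, was 1212 in the list made from both libraries, where it ranked 15, and it ranked 12 in replicate 2 and 16 in replicate 3. The peak at Chro, which encodes a chromodomain protein, and Ssl1, which encodes a subunit of the general factor TFIIH, had a signal of 1185 and ranked 15 in replicate 2 and 19 in replicate 3. Unlike most, its summit (peak chr3L:22878696-22879094) was not between the starts, which lay 105 bp apart, but 106 bp downstream of the Chro start. The peak between Atat, which encodes a tubulin acetyltransferase, and the adaptor protein gene Shc had a signal of 1134 and ranked 19 and 18 in replicates 2 and 3. The peaks at Pdrg1/Pal1 (1129), mRpS23/CenG1A (1035) and Tcs5/CHMP2B (977) came next, CHMP2B being a component of the ESCRT-III membrane remodelling machinery. Both replicates placed these 6 peaks at rank 31 or better.

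Among the next in strength were Fbw5/CG9147 (877), Pex11ab/CG8320 (803), with a gene of peroxisome proliferation, and Ripalpha/RpL7 (709), with a gene of the large cytosolic ribosomal subunit. RpS27/Nup37 (702) pairs a ribosomal protein gene with a nuclear pore gene, and its summit lay 1 bp from the RpS27 start. At CG13185/cuff (700.4), cuff encodes a factor of piRNA cluster transcription. At Stt3A/bves (657), Stt3A encodes the catalytic subunit of an oligosaccharyltransferase, and the starts lay 609 bp apart. Of the 20 strongest peaks at divergent promoters, the lowest placed ranked 80 in replicate 2 and 86 in replicate 3, 14 had their summit between the starts, and 6 had a DRE, Motif 1 or Motif 7 within 100 bp of the summit. They were picked by signal in the list pooled from these libraries, so high ranks in each follow in part from that choice.

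Over all 1072, the signal ran from 84.2 to 1212 with a median of 143 (quartiles 109 and 206). Single-strand promoter peaks had a median of 127 (quartiles 100.1 and 183), and peaks without a TSS nearby had a median of 123 (quartiles 98.6 and 179). More of the divergent peaks exceeded the median of all promoter peaks, 133: 611 of 1072 (57.0%), against 836 of 1823 single-strand promoter peaks (45.9%; odds ratio 1.56, 95% interval 1.34 to 1.83, two-sided Fisher's exact test, p = 7.53e-09). The distributions nevertheless overlapped widely, and the highest single-strand signal was 1958. For the part of the list above its median signal, the median of promoter peaks was taken anew within that part. The difference then did not pass the test, at 51.6% against 48.9% (odds ratio 1.11, Fisher's exact p = 0.322). Peaks and gene pairs are not independent replicates, so this and the other p-values describe these lists, and their intervals cover counting error only.

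Divergent promoters made up a larger share of peaks at the strong end of the list. In 5 equal parts of the list from strongest to weakest, they were 29.2%, 27.8%, 22.5%, 19.5% and 17.5% of peaks. Among the 25401 weaker entries of the pooled list, which did not pass the threshold, 1172 (4.61%) met the same rule, against 23.3% of thresholded peaks (odds ratio 6.28, 95% interval 5.74 to 6.88, Fisher's exact test). Restricted to weaker entries with a deposited q-value under 0.05, the share was 11.8% and the odds ratio 2.28. The odds ratio also moved with the TSS window of the rule, to 10.3 at 250 bp and 4.05 at 1000 bp. The rule is met by 1674757 of the 137057575 known bases of the chromosome arms, or 1.22%. At the 500 bp limit, 20 peaks had their farther TSS in the last 25 bp inside it, with a median signal of 116, and 19 peaks missed it by at most 25 bp, with a median of 155.

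Of the 1072 peaks, 1008 (94.0%) had a summit within 100 bp in both replicate lists of 30000 entries, 35 in replicate 2 only and 29 in replicate 3 only. Since the authors derived the thresholded list from the replicates themselves, a high share follows from how it was made. Among the best 4599 entries of a replicate, 941 (87.8%) were found in replicate 2 and 917 (85.5%) in replicate 3. The share found among the best of both was 75.5% (809 of 1072), against 68.7% (1253 of 1823) of single-strand promoter peaks (odds ratio 1.40, 95% interval 1.18 to 1.67, Fisher's exact test, p = 0.000109). In the part of the list above its median signal nearly all were found in both, 96.4% against 95.5%, and this difference did not pass the test (odds ratio 1.26, Fisher's exact p = 0.435). The median ranks were 1974 in replicate 2 and 1788 in replicate 3, against 2429 and 2303 for single-strand promoter peaks.

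Ranks in the replicates differed by a median factor of 1.44, and 72 of 1008 peaks ranked over 3-fold apart. The peak at Herp/r2d2, where r2d2 encodes the partner of Dicer-2 in small interfering RNA loading, ranked 141 in replicate 2 and 4250 in replicate 3. The peak at Hs2st/RanGAP, where RanGAP encodes the activator of the Ran GTPase, ranked 20607 in replicate 2 and 1447 in replicate 3. Discordant peaks of this kind were found in both directions, as the plot of replicate ranks shows.

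**Figure D1:**
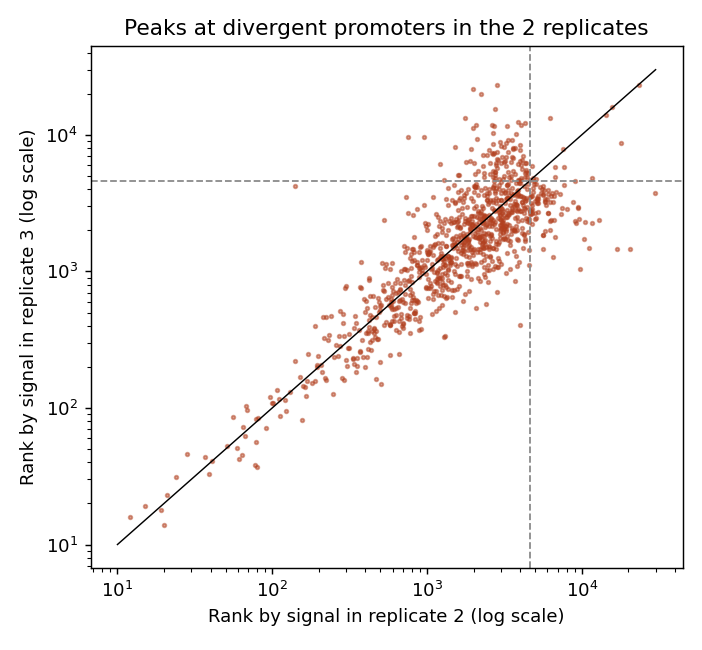
Rank by signal of each peak at a divergent promoter in replicate 2 (horizontal, log scale) and replicate 3 (vertical, log scale), for the 1008 peaks found in both lists. The solid line marks equal ranks and the dashed lines mark rank 4599; most strong peaks lie close to the line, with the exception of Herp/r2d2 at ranks 141 and 4250, and the scatter widens towards weaker ranks.

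Most of these peaks sat at genes transcribed away from each other, as most opposite-strand pairs of the annotation are. For 1054 of 1072 (98.3%) the nearest minus-strand TSS lay to the left of the nearest plus-strand TSS, and for 18 the genes faced each other. Of all 2720 opposite-strand pairs with closest starts at most 1000 bp apart, 96.2% were head to head, so the share is close to the background. The distance between the starts, here called the gap, had a median of 256 bp (quartiles 127.5 and 346, maximum 717). The 1072 peaks fell at 999 distinct pairs of nearest starts, 73 of which had 2 peaks. They reached 2022 genes, 55.8% of the 3624 genes with any thresholded summit within 500 bp of a TSS. In most cases, 1013 peaks, exactly 2 genes had a TSS in reach. A single peak at the pre-mod(mdg4) locus on 3R, where many short alternative trans-spliced exons are annotated as genes of their own, had 10 genes in reach and a signal of 303.

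Most summits lay in the stretch between the starts, a position that the rule itself limits. Of 1054 head-to-head peaks, 822 (78.0%) had the summit between the starts, and where the gap was at least 100 bp this was 721 of 846 (85.2%). At gaps of 500 bp or more, a summit within 500 bp of both starts must lie between them, as all 57 did. The rule also caps the distances that follow, and no share expected under the rule was computed. The summit lay a median of 53 bp from the nearer start and 69 bp (quartiles 29.5 and 128) from the midpoint of the pair, and 684 (64.9%) were within 100 bp of the midpoint. There was little preference for a strand: 567 summits were nearer the plus-strand gene and 504 nearer the minus-strand gene, a share of 52.9% (95% interval 49.9% to 56.0%).

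**Figure D2:**
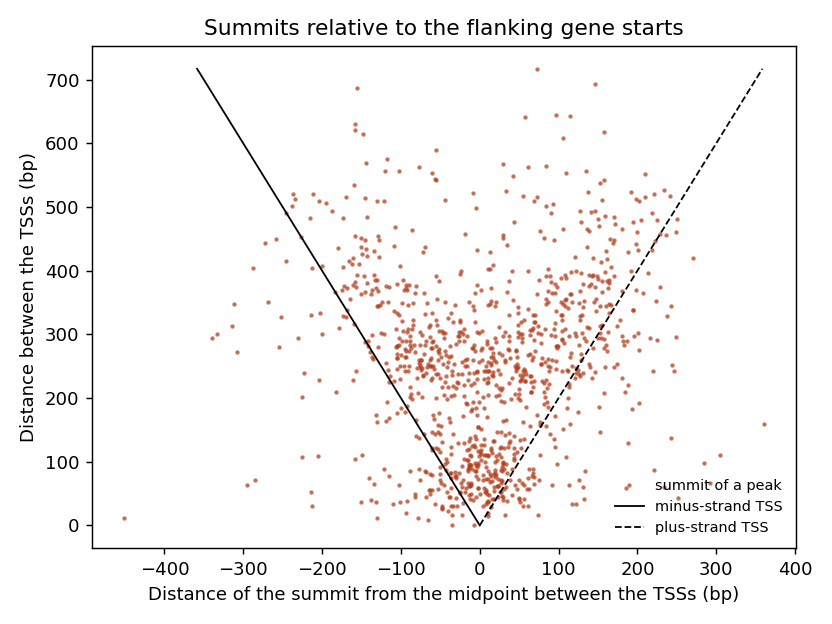
Distance of each summit from the midpoint between the nearest minus-strand and plus-strand starts (horizontal, bp), against the distance between those starts (vertical, bp), for head-to-head peaks. Each point is 1 peak; most points, 822 of 1054, fall between the lines that mark the starts.

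Median signal was highest at gaps of 100 bp to under 250 bp and alike in the other classes, with no test made. In that class 64.6% of peaks exceeded the median of all promoter peaks. The shares were 53.4% at gaps under 100 bp, 54.8% at 250 bp to under 500 bp and 54.4% at 500 to 1000 bp. Peaks at gaps under 100 bp had a median signal of 138 (n = 208), those at 100 bp to under 250 bp 155 (n = 291), those at 250 bp to under 500 bp 138 (n = 498) and those at 500 to 1000 bp 139 (n = 57). The 18 peaks at facing genes had a median of 124, and the strongest of them, at CG4741/Adck1, had a signal of 600.2 and ranked 78 in replicate 2 and 83 in replicate 3.

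Bound head-to-head promoters were next set against all gene pairs that could have carried a peak. The annotation holds 2616 head-to-head pairs with closest starts at most 1000 bp apart, formed by 4960 genes, or 35.5% of 13968 protein-coding genes. A bound pair is one with both starts no more than 500 bp from the same thresholded summit, which was so for 34% of pairs of any orientation. Of head-to-head pairs 1028 (39.3%) were bound, against 141 of 800 same-strand pairs (17.6%; odds ratio 3.03, 95% interval 2.47 to 3.72, Fisher's exact test, p = 7.37e-32). With the best 4599 entries of each replicate, 988 head-to-head pairs (37.8%) were bound in replicate 2 and 1038 (39.7%) in replicate 3, and 132 (16.5%) and 139 (17.4%) same-strand pairs. Of the 104 facing pairs, 27 (26.0%) were bound. The size of the head-to-head odds ratio depended on the setting: it was 1.46 with a TSS window of 250 bp, 6.02 with 1000 bp and 4.97 when a summit had to lie within 100 bp of the midpoint. The TSS window also set the largest gap of a pair, so the pairs tested were not the same. There were 1954 head-to-head and 404 same-strand pairs at 250 bp, and 3441 and 2413 at 1000 bp.

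The gap moved with these shares and has to be held beside them, since a summit within reach of both starts has less room as the gap grows. At gaps under 100 bp, 246 of 418 head-to-head pairs (58.9%) were bound, against 132 of 370 same-strand pairs (35.7%). Of the 800 same-strand pairs, 360 share the very same annotated start, so they are not a matched set. At 100 bp to under 250 bp the counts were 304 of 589 head-to-head pairs (51.6%) and 1 of 4 same-strand pairs, and at 250 bp to under 500 bp they were 430 of 944 (45.6%) and 3 of 29 (10.3%). At 500 to 1000 bp, 48 of 665 head-to-head pairs (7.22%) were bound, against 5 of 397 same-strand pairs (1.26%). Fisher's exact tests within the 4 classes, added after seeing the data, gave adjusted p = 2.92e-10, 0.36, 0.000118 and 7.37e-06 in the order of rising gap. The second class, with 4 same-strand pairs, could hardly be tested. Some head-to-head pairs came in series that repeat the same gaps. Each pair was counted, and the effect on these shares was not tested.

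**Figure D3:**
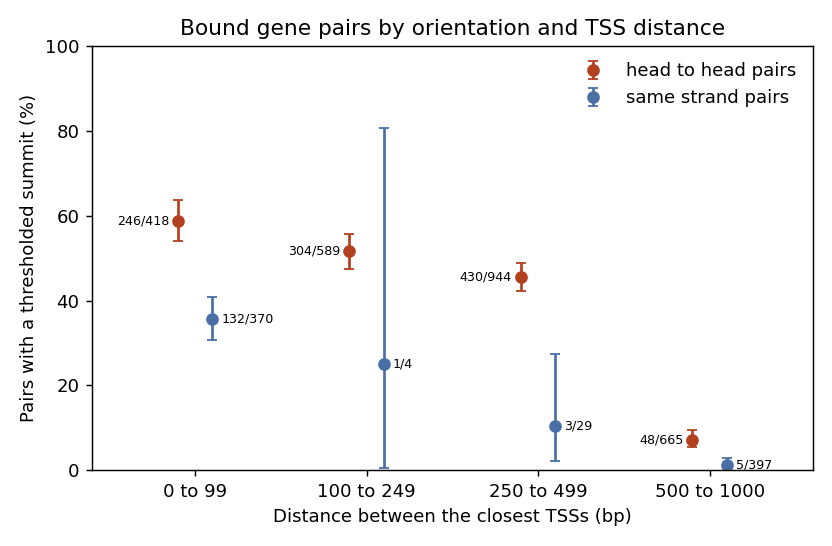
Share of gene pairs with a thresholded summit within 500 bp of both starts (vertical, %), by the distance between the closest starts (horizontal, bp), for head-to-head and same-strand pairs. Bars are exact 95% intervals and the fractions give bound over all pairs; the head-to-head share falls from 58.9% in the closest class to 7.22% in the widest.

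Counted by gene, 2285 of 4960 genes with a head-to-head partner (46.1%, 95% interval 44.7% to 47.5%) had a thresholded summit within 500 bp of a TSS, against 1152 of 7983 genes (14.4%, 13.7% to 15.2%) with no other gene's TSS within 1000 bp. The rule is not equal for these sets, since the same summit can count for both genes of a head-to-head pair. A gene with no other gene's TSS nearby is counted only by a summit near its own starts. The part of this in the difference was not tested. Over all protein-coding genes the share was 25.9%. Many head-to-head pairs carried no thresholded peak: of 1588 that were not bound, 684 (43.1%) had a weaker entry of the pooled list and 904 had no entry at all.

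The DNA around the summits differed from that of single-strand promoter peaks. Motifs were searched on both strands within 100 bp of the summit, and 8 of 14 differed after adjustment over the 14 (Fisher's exact test, Benjamini-Hochberg adjustment). Motif 7 (CATCNCTA, CATCNCTG, CAGCNCTA or CAGCNCTG) was present at 341 divergent peaks (31.8%), against 21.4% of single-strand promoter peaks (odds ratio 1.71, exact adjusted p = 4.78e-09). The DRE (TATCGATA) was present at 151 (14.1%), against 8.23% (odds ratio 1.83, exact adjusted p = 3.69e-06). Motif 1, searched by its core GGTCACACT, was present at 89 (8.30%), against 5.70% (odds ratio 1.497, exact adjusted p = 0.0200). The Motif 1 call was lost with 1 TSS per gene (odds ratio 1.16), with a TSS window of 250 bp, with a motif window of 50 bp and in the part of the list above its median signal (exact adjusted p from 0.0534 to 0.55). At least 1 of these 3 elements was found at 490 of the 1072 peaks (45.7%), and 582 had none. For scale, windows of the same size around annotated starts held Motif 7 in 13.9%, the DRE in 6.44% and Motif 1 in 4.42% of cases. They held GAGAG in 24.97%, TATAAA in 26.9%, CAGCTG in 13.4%, the initiator in 30.6%, CGCAG in 31.5% and the forkhead site in 23.5%. Windows around the midpoints of all head-to-head pairs, bound or not, held Motif 7 in 15.0%, the DRE in 8.56% and Motif 1 in 4.36%. The same windows held GAGAG in 14.4%, TATAAA in 39.9%, CAGCTG in 12.7%, the initiator in 18.2% and CGCAG in 18.1%. They held the forkhead site in 27.1%, the share also found at divergent peaks. The GAGAG share at divergent peaks, 14.8%, was thus close to that of head-to-head promoters in general. The TATAAA share, 29.9%, was below it.

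TATAAA and the E-box CAGCTG were also more frequent at divergent peaks, at 29.9% against 21.4% (exact adjusted p = 2.47e-06) and 19.0% against 13.1% (exact adjusted p = 6.6e-05). The CAGCTG call was lost with a TSS window of 1000 bp, at 16.3% against 13.6% (odds ratio 1.24, exact adjusted p = 0.07). The GAGA element, searched as GAGAG, was less frequent, at 14.8% against 25.7% (odds ratio 0.503, exact adjusted p = 3.96e-11). The initiator (TCAGTC or TCAGTT), at 15.6% against 19.0%, and CGCAG, at 26.2% against 30.4%, were less frequent too (exact adjusted p = 0.0358 and 0.0347). Both calls were lost with a TSS window of 250 bp, with a motif window of 50 bp and in the part of the list above its median signal. That of the initiator was also lost with 1 TSS per gene, and that of CGCAG with replicate 2 alone, with a TSS window of 1000 bp and among peaks found in both replicate lists. A forkhead site (ACAAACA or ATAAACA or GCAAACA or GTAAACA) was found at 27.1% of divergent peaks, against 28.4% of single-strand promoter peaks (exact adjusted p = 0.544), and the same letters written backwards at 23.0%, against 25.01% (exact adjusted p = 0.310). The forkhead and backward searches share the word ACAAACA. The windows differed in base composition, with a median GC content of 37.8% at divergent peaks, against 40.8% at single-strand promoter peaks, and the part of GC content in these differences was not tested.

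Among the peaks at divergent promoters, those with a motif were hardly stronger than those without. The median signal was 151 with Motif 7 and 140 without, 142 with a DRE and 144 without, and 132 with Motif 1 and 145 without, with widely overlapping quartiles. Motif sites of different kinds rarely overlapped: 2 of 161 DRE sites overlapped a Motif 7 site, and 1 of 395 Motif 7 sites overlapped a Motif 1 site. The DRE lay a median of 36.5 bp and Motif 7 a median of 37.5 bp from the summit. For CGCAG, which was less frequent at divergent peaks, the median was 39 bp. It was 47 bp for Motif 1 and 48 bp for the forkhead site, and no test was made on these distances.

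Bound and not bound head-to-head pairs were then compared in windows that do not depend on a summit, 100 bp on each side of the midpoint between the starts. Motif 7 was present at 23.8% of 1028 bound pairs, against 9.26% of 1588 not bound (odds ratio 3.07, 95% interval 2.44 to 3.86, exact adjusted p = 1.41e-22). The DRE was present at 12.6%, against 5.92% (exact adjusted p = 2.28e-08), and Motif 1 at 6.91%, against 2.71% (exact adjusted p = 2.84e-06). TATAAA was less frequent at bound pairs, at 36.2% against 42.3% (exact adjusted p = 0.00432), unlike around summits, where it was more frequent at divergent peaks. GAGAG, at 13.2% against 15.2%, did not pass the test (exact adjusted p = 0.185). In all, 9 of 14 motifs differed. Set against only the 904 pairs with no pooled entry at all, the odds ratios were 4.83 for Motif 7, 7.13 for the DRE and 11.1 for Motif 1, against 3.07, 2.30 and 2.67 with every pair not bound. However, bound pairs had a median gap of 240.5 bp and pairs not bound 402 bp, so the windows lie at unlike distances from the starts.

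Within classes of similar gap, compared after seeing the data, Motif 7 was more frequent at bound pairs in each of 3 classes and no other motif was in all 3. At gaps under 100 bp Motif 7 was present at 38.2% of bound pairs, against 22.1% of pairs not bound (exact adjusted p = 0.00833). At 100 bp to under 250 bp it was present at 28.6%, against 17.2% (exact adjusted p = 0.00421), and at 250 bp to under 500 bp at 14.4%, against 6.23% (exact adjusted p = 0.00042). The DRE was present at 22.8%, against 22.1%, in the first class (exact adjusted p = 1), at 17.1%, against 9.47%, in the second (exact adjusted p = 0.0213) and at 5.12%, against 3.89%, in the third (exact adjusted p = 0.6). Motif 1 passed the test in none of the 3 classes. The initiator was less frequent at bound pairs in the second class, at 13.8% against 27.4% (exact adjusted p = 0.00041), and in the third, at 11.9% against 20.04% (exact adjusted p = 0.00525). In the second class GACGC was more frequent (15.8% against 6.32%, exact adjusted p = 0.00165) and TATAAA less frequent (28.9% against 46.3%, exact adjusted p = 0.000194). That class held a long series of pairs not bound that repeated a few gaps, and a shorter series of bound pairs with the same gap. The third class held such series on both sides. Their windows may be alike, each pair was counted, and their part in the differences of any motif was not tested. Over all gaps the forkhead site was present at 28.7% of bound pairs and 26.0% of pairs not bound, which did not pass the test (odds ratio 1.15, exact adjusted p = 0.16). It passed under 4 alternatives, with odds ratios of 1.25 and 1.28 at TSS windows of 250 and 1000 bp, 1.21 with a motif window of 250 bp and 1.27 against pairs with no pooled entry. Within the 3 gap classes its odds ratios were 0.988, 1.01 and 1.09, none of which passed. The backward letters were less frequent at bound pairs, at 20.9% against 25.5% (odds ratio 0.772, exact adjusted p = 0.0128), and passed in none of the 3 gap classes.

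**Figure D4:**
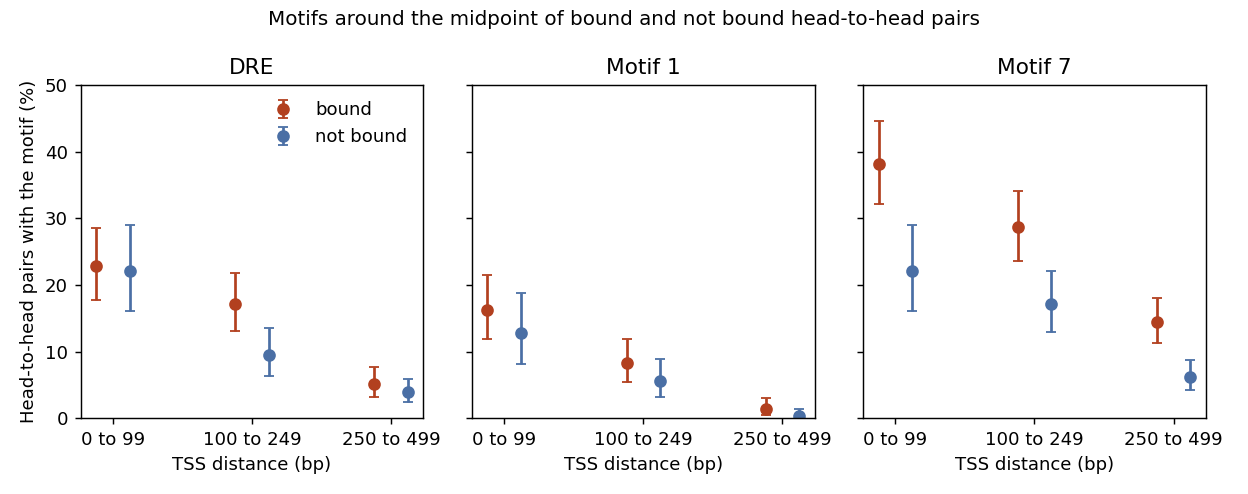
Share of bound and not bound head-to-head pairs with the DRE, Motif 1 or Motif 7 within 100 bp of the midpoint between the starts (vertical, %), by the distance between the starts (horizontal, bp). Points are shares and bars exact 95% intervals; Motif 7 is more frequent at bound pairs in each class, while the DRE shares under 100 bp are 22.8% and 22.1%.

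Gene groups matched by symbol were counted among genes with a head-to-head partner, of which 1958 of 4960 (39.5%) belonged to a bound pair. These lists were chosen with earlier results of these data known, and no test was made on them. Of 58 mitochondrial ribosomal protein genes with such a partner, 36 (62.1%) were at a bound pair. Their bound pairs had a median signal of 124, against 149 for all genes at bound pairs. Besides mRpS10, the strongest were mRpS23/CenG1A, mRpL23/CG9004 (640.3) and AGO1/mRpL53 (310.1), AGO1 being the Argonaute of the microRNA pathway. Of 56 cytosolic ribosomal protein genes with a partner, 34 (60.7%) were at a bound pair, with a median signal of 238. RpL14, which shares its promoter with Nelf-E, a gene of the negative elongation factor of transcription, had a signal of 589.4 and ranked 91 in replicate 2 and 71 in replicate 3.

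Of 19 Mediator genes with a head-to-head partner, 13 (68.4%) were at a bound pair. The strongest, MED30, which shares its promoter with the translesion polymerase gene Rev1, had a signal of 589.5 and ranked 81 and 85 in replicates 2 and 3. The shares were 7 of 13 for chromatin genes, 12 of 23 for aminoacyl tRNA synthetases, 14 of 27 for spliceosome genes, 9 of 18 for nuclear pore genes, 8 of 16 for TFIID and general factors, 11 of 24 for the proteasome, 7 of 16 for the cell cycle and 5 of 13 for replication. The exact 95% intervals of these 8 groups reach to both sides of 39.5%, and that of Mediator, 43.4% to 87.4%, does not. These intervals cover counting error only, are not adjusted over the 14 lists and do not stand for a test. Examples are brm/Arl1 (184), with the ATPase of the Brahma chromatin remodeller, Hat1/Rpn5 (289), with a histone acetyltransferase and a proteasome lid subunit, and dup/SRPK (325), with the replication licensing factor Cdt1 encoded by dup.

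Group genes with and without a head-to-head partner were counted by 1 rule, a thresholded summit within 500 bp of any of their starts. The rule is not equal for both, since a summit at the partner's start can also count for a gene with a partner. The part of this in the counts was not tested. By this rule 48 of 56 cytosolic ribosomal protein genes with a partner had a summit, against 22 of 37 without one. For mitochondrial ribosomal protein genes the counts were 38 of 58 with a partner and 1 of 15 without, and for Mediator genes 14 of 19 and 1 of 6. For chromatin genes they were 10 of 13 with a partner and 6 of 9 without, and for cell cycle genes, where the share was lower with a partner, 8 of 16 and 11 of 19. A pair took its orientation from its closest starts, and a peak from the starts nearest its summit. The cell cycle gene Dp thus counted as without a partner, although its peak, Fsn/Dp (341), was head to head. Over all genes they were 2285 of 4960 with a partner and 1339 of 9008 without.

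At 3 bound pairs both genes were on a list. These were RpS27/Nup37, Cdk1/mRpS7 (126), which joins the mitotic kinase gene with a mitochondrial ribosomal protein gene, and Taf10b/Taf10 (112), which encode paralogous TFIID subunits. The Taf10b/Taf10 peak ranked 4374 in replicate 3 and had no summit within 100 bp in replicate 2.

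Few genes of the cuticle, cytochrome P450 and chemoreceptor lists were at a bound pair. None of 12 cuticle-list genes (a list by symbol that also takes in Acp genes, some of which are seminal fluid genes) and none of 12 cytochrome P450 genes with a head-to-head partner were at a bound pair, which allows shares up to 26.5% each (exact 95% upper bound). Of 25 chemoreceptor genes 2 were, Ir60e/CG13585 (134) and Gr63a/Lamtor4 (114), Gr63a encoding a subunit of the carbon dioxide receptor.

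**Figure D5:**
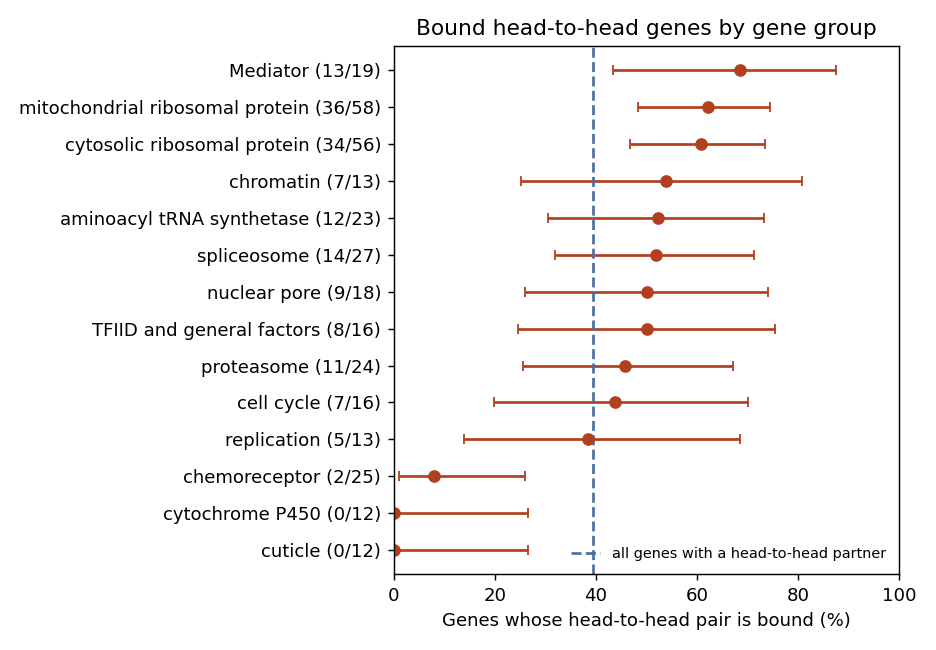
Share of genes with a head-to-head partner whose pair is bound (horizontal, %), for each gene group. Points are shares with exact 95% intervals, the fractions give bound over all, and the dashed line marks 39.5% for all genes with a partner. The intervals are not adjusted over the groups, and no test was made. They lie above the line for both ribosomal protein groups and Mediator and below it for cuticle, cytochrome P450 and chemoreceptor genes. The other 8 intervals cross it.

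The peaks were spread over the large chromosome arms, among which the share of bound pairs was lowest on X. On X, 129 of 392 head-to-head pairs (32.9%) were bound, against 899 of 2224 (40.4%) on the other arms (odds ratio 0.723, 95% interval 0.571 to 0.912, Fisher's exact test, p = 0.00503). By arm the share was 37.1% on 2L (95% interval 32.8% to 41.5%) and 37.7% on 2R (33.5% to 41.9%). It was 39.9% on 3L (35.6% to 44.3%) and 46.0% on 3R (42.2% to 49.8%). The interval of X, 28.3% to 37.8%, overlapped all of these but that of 3R. The difference between X and the other arms was also present over all genes, 22.9% of which were bound on X, against 26.5% elsewhere. With a TSS window of 250 bp the difference in pairs no longer passed the test (odds ratio 0.772, Fisher's exact p = 0.0612). That setting also tested fewer pairs, 280 on X and 1674 elsewhere. On chromosome 4, 1 of 11 pairs was bound, Tdg/Pur-alpha, with a thymine DNA glycosylase gene and a gene for a nucleic acid binding protein. Its signal was 91.1 and it ranked 2668 in replicate 2 and 10369 in replicate 3.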

How the data were processed

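ChIP-seq for CHES-1-like-GFP was done in 2 samples of 1 group, with chromatin sonicated to 200 to 800 bp, per the labels. The authors deposited lists of peaks with a signal value, a −log10 q-value and a summit position. Per the deposited manifests, replicate and pooled lists hold peaks and background relative to a control library, not analysed here, and the thresholded list was obtained from all 3 with an irreproducible discovery rate (IDR) procedure. It holds the 4599 strongest of 30000 pooled entries. For the aligner, the peak caller and the IDR limit, names and values were not given in the sources used here. Read counts per peak are not in the lists, and the depth is thus unknown. The deposited −log10 q-value was at its highest level, 3.92, for 92.8% of divergent peaks and ranks them little, so the authors' signal was used, within a list only.

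TSSs of 13968 protein-coding genes (19630 positions) came from Ensembl release 115 and sequence from RefSeq's release 6 genome. Lists on dm3 were not used. Summits of different lists were matched within 100 bp. Tests were two-sided Fisher's exact tests, with Benjamini-Hochberg adjustment over 14 motifs at 0.05 and exact Clopper-Pearson intervals at 95%. The members, gene lists and motifs were chosen with earlier results of these data known. Named genes are those at the 20 strongest peaks, at the strongest by gap, arm, orientation, motif and gene list, and at the sequences shown. Peaks discordant between replicates, the peak with 10 genes and pairs with both genes on a list were named after their values were seen. Alternatives covered either replicate alone, the TSS window, 1 TSS per gene, a stronger list, matching and motif windows. For gene pairs the TSS window also set the largest gap, so it changed which pairs were tested. The code was tested on simulated data. Tests ran in scipy 1.17.1 under Python 3.11.15, tables in pandas 2.3.3 with numpy 2.4.6, and figures in matplotlib 3.10.9.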

Additional observations from a re-analysis of the deposited data

How the results depend on the processing

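Of 63 alternative values of the main comparisons, 54 kept their direction and side of the threshold (counts within 1.5 times). With either replicate alone, odds ratios ran from 5.82 to 7.39 for the share of divergent peaks against weaker entries, 3.07 to 3.13 for head-to-head against same-strand pairs (the TSS window moved both more, as given with them), 1.56 to 1.57 for signal over the promoter median, and 0.748 to 0.779 for X. In the part of the list above its median signal, the odds ratio was 1.11 for signal over that part's own promoter median. For presence in both replicates it was 1.26, and neither passed the threshold. In that part 5 motifs differed around summits, as many as with a 250 bp TSS window, against 8. That part holds fewer peaks. With that window the odds ratio for X was 0.772. At gaps of 100 bp to under 250 bp the head-to-head odds ratio was 3.2 (Fisher's exact p = 0.36) with 4 same-strand pairs. Within gaps under 100, of 100 to under 250 and of 250 to under 500 bp, 1, 5 and 2 motifs differed at bound pairs, against 9 over all gaps. Gap classes and the restriction to peaks in both replicate lists were chosen after seeing the data. Of 308 alternative values for single motifs, 246 stayed the same, 40 lost the threshold, 17 gained it and 5 reversed: TATAAA at bound pairs with a 1000 bp TSS window (1.11) and at gaps of 250 to under 500 bp (1.14), GACGC at bound pairs with a 1000 bp TSS window (0.951) and at gaps under 100 bp (0.910), and CGCAG around summits with a motif window of 250 bp (1.04); the cause was not tested. No paired analysis was possible because there is only 1 group. Unknown depth limits what can be said of pairs without a peak.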
